A study of Rattus norvegicus with 241 samples.

Results

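The luminal keratin genes KRT7, KRT8, KRT18 and KRT19 were followed through every bulk and single-cell expression table of a rat mammary gland study, matching symbols without regard to case. All 4 genes had a row in the 39 single-cell tables, which held 160052 cells. KRT8, KRT18 and KRT19 had a row in the 202 bulk tables, each of which listed between 12693 and 15826 genes. KRT7 was analysed in the single-cell tables; it was not analysed in bulk.

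The study dosed ACI rats, an inbred strain prone to estrogen-induced mammary tumors, and outbred SD (Sprague-Dawley) rats with LY2157299 (TGFBRi), an oral inhibitor of the TGFβ receptor kinase TGFBR1, at 75 mg/kg 2 times a day, or with vehicle. Dosing lasted 10 days in all experiments except the estradiol one, where it lasted 21 days. Mammary cells were sorted into CD24+CD29high basal, CD24+CD29low luminal and CD45+ fractions. Peripubertal ACI rats, dosed from 35 days of age, were sampled 0, 7 and 14 days after the last dose, with 3 rats per arm and day. Peripubertal SD rats, dosed from 24 days of age, were sampled at day 0 with 4 rats per arm. Adult ACI rats of 18 to 24 weeks were virgin or parous, with up to 4 rats per arm and parity. SD rats of the carcinogen experiment were dosed from 21 days of age, then given 50 mg/kg NMU (N-nitroso-N-methylurea) in both arms, and sampled 87 days later as tumor-bearing vehicle, tumor-bearing TGFBRi or tumor-free TGFBRi rats, 3 of each. EPCAM+ and CD45+ cells were also sorted from NMU tumors, with 3 samples per arm. ACI rats of the estradiol experiment, dosed from 38 days of age, carried or lacked an estradiol (E2) pellet, and those with a pellet were tumor-bearing in the vehicle arm and tumor-bearing or tumor-free in the TGFBRi arm. Tumor-bearing and tumor-free groups were thus split by outcome. In the estradiol experiment, luminal and CD45+ samples came from 4 vehicle rats with a pellet and 4 without. TGFBRi samples came from 3 rats without a pellet, 4 tumor-free rats with it and 2 tumor-bearing rats with it. These rats were sampled at the end of the tumor study. Single cells came from the basal and luminal sorts of ACI rats, 3 vehicle and 3 TGFBRi, and SD rats, 3 vehicle and 6 TGFBRi. Others came from whole glands of 3 vehicle and 6 TGFBRi SD rats. All of these rats were virgin and at day 0. The labels call the rats of the sorts young, and the study describes them as peripubertal. The whole-gland libraries repeated that experiment in SD rats.

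Keratins of simple epithelia form intermediate filaments as obligate pairs of a type II and a type I protein. KRT8 and KRT7 are type II keratins, and KRT18 and KRT19 are type I keratins. In the mammary gland these 4 genes are used as markers of the luminal layer, whereas the basal myoepithelial layer is known for KRT5 and KRT14.

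Krt8 and Krt18 lie on rat chromosome 7 with Krt7, and Krt19 lies on chromosome 10. The 250 bases before the annotated start of Krt8 and of Krt18 are shown because these 2 genes encode filament partners and their levels differed unequally between the lineages. They are from RefSeq, build GRCr8, 5′ to 3′ on the gene's strand, with capitals marking matches to the motifs searched on both strands. Krt8 is on the minus strand at chr7:135010340-135010589 and Krt18 on the plus strand at chr7:135035918-135036167.
Krt8: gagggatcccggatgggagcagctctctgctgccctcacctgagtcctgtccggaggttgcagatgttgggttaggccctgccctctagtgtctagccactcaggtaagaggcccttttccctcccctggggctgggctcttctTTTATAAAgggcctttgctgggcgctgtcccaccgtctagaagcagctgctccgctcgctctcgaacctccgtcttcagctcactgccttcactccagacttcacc
Krt18: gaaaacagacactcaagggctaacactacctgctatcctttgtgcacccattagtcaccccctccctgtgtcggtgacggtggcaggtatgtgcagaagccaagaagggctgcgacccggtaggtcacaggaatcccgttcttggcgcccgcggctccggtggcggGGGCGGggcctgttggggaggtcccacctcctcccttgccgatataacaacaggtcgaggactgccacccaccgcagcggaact
The Krt8 window held TATAAA on both strands at overlapping positions. This motif was present in 12.9% of 33469 promoter windows of the same length. The Krt18 window held GGGCGG once, beginning 84 bases before the start, a motif present in 30.5% of windows. Neither window held CCAAT (34% of windows), TGANTCA (6.34%) or GTCTAGAC (0.173%). These matches describe letters in a window and were not tested for binding. The promoters of Krt7 and Krt19 are named only.

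Bulk libraries held between 4194912 and 52314784 reads. Single-cell libraries held 563 to 3853 cells in the sorts, with a median of 4251 to 15941 UMIs (unique molecular identifiers, counted transcripts) per cell, and 7900 to 16424 cells in whole glands, with a median of 2820 to 3885 UMIs. In all 30 sorted libraries the lowest keratin sum in a cell was 2 and no cell held a PTPRC UMI, which is the authors' filter for epithelium, so shares of keratin-positive cells there are shares after that filter. Whole glands had no such filter, and 60.5% to 82.5% of their cells had fewer than 2 keratin UMIs. The most barcodes that a pair of libraries shared was 284, and the highest share, in any pair, was 2.51% of the smaller library. TGFBRi SD rat 14 stood apart in the basal sort and in the basal-like and luminal progenitor-like cells of the sorts, and vehicle virgin rat 1 stood apart in the adult ACI basal and CD45+ samples. The third vehicle rat of ACI day 7 is a control by title and treatment label, but both of its epithelial samples are described as coming from a treated animal, and it was kept as vehicle. Differences of the members by the main limma and edgeR tests that are described for these groups are given with and without these libraries. Ratios of KRT8 to KRT18, marker sums, calls by other tools and values on another scale are given with them only.

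The luminal keratins measured were higher in luminal than in basal cells of vehicle rats in the 5 bulk and 2 single-cell comparisons made, with KRT18 separating the fractions by the widest fold in each. Bulk values are the authors' normalized read counts, and differences are log2(value + 1) luminal minus basal with the standard error from limma. In bulk samples fewer cells of a type and less RNA per cell cannot be told apart. The sorts carried their labels: in ACI rats at day 0, all 7 of 7 tested markers shared by luminal cells and none of 10 basal markers were higher in luminal samples, and 8 of 10 basal markers were lower. The median differences were 5.61 and -8.03 over those lists and -0.21 over all genes.

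KRT8, which pairs with KRT18, had normalized read counts of 33072, 29594 and 21712 in ACI basal samples at day 0 and 160375, 162292 and 141189 in luminal samples. KRT18 had 2027, 2382 and 2041 in the basal samples and 59540, 67332 and 58549 in the luminal samples. KRT19, a type I keratin without the tail domain of other keratins, had 4947, 6684 and 5225 in the basal samples and 26297, 29407 and 25651 in the luminal samples. No basal sample reached a luminal sample for any of the 3 genes. The difference was 2.48 ± 0.26 (SE, n = 3 per group, limma adjusted p = 2.14e-08) for KRT8, 4.85 ± 0.42 (limma adjusted p = 7.84e-10) for KRT18 and 2.28 ± 0.54 (limma adjusted p = 0.00204) for KRT19. All 3 of 3 genes passed an adjusted p of 0.05, against 20.5% of the 15824 genes tested, and 45.5% of genes did not overlap between these groups.

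The same 3 genes passed in ACI rats 7 and 14 days after dosing, against backgrounds of 14.7% and 19.3%. At day 7 the differences were 1.62 for KRT8, 4.85 for KRT18 and 2.22 for KRT19. They were 1.52, 4.43 and 1.78 without the luminal sample of the rat with conflicting labels and 1.72, 5.22 and 2.47 without its basal sample, and all 3 genes still passed. At day 14 they were 1.67, 3.68 and 1.89 in that order, and KRT19 missed the threshold without basal replicate 3 (1.56, limma adjusted p = 0.0755). Fitted on these groups alone, 1 of 3 genes passed at day 7. The share of all genes called in that smaller fit is not given, so a general loss of calls cannot be told apart.

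In peripubertal SD rats KRT8 was 21771 to 28510 in 4 vehicle basal samples and 100991 to 153449 in 4 luminal samples. KRT18 was 1985 to 2368 in the basal samples and 47139 to 79926 in the luminal ones. KRT19 was 3713 to 4121 in the basal samples and 47000 to 95009 in the luminal ones. The differences were 2.33 ± 0.25, 4.92 ± 0.25 and 4.07 ± 0.27 (SE, limma), with no overlap, and 3 of 3 genes passed against 40.9% of all genes. The groups did not overlap for 46.6% of all genes. These basal samples also held fibroblast markers at a summed level of 370891 to 594091, and 5 of 5 tested fibroblast markers were lower in the luminal fraction. Their part in the result was not tested. In NMU-exposed vehicle rats the differences were 1.42, 3.32 and 2.17, with 3 of 3 genes called against 27.3%.

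**Figure D1:**
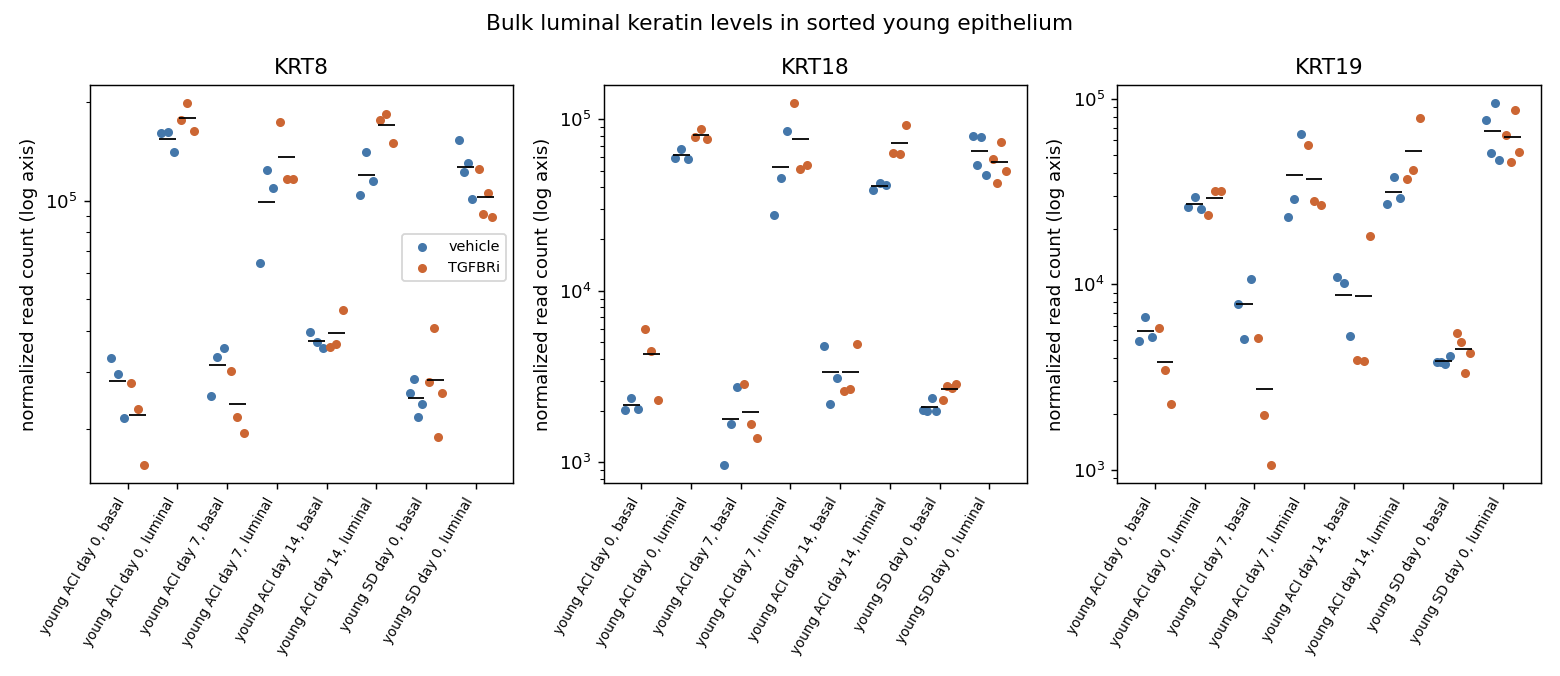
Normalized read counts (log axis) of KRT8, KRT18 and KRT19 in sorted basal and luminal samples of peripubertal ACI and SD rats by day; each point is a rat, blue for vehicle and orange for TGFBRi, and the black line is the group mean. Every luminal group mean lies above the basal mean of the same day and strain, and the step is widest for KRT18.

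KRT18 again had the widest difference in the single-cell sorts, where KRT7 was also measured. Levels here are in CPM, the UMIs of a gene summed over the cells of a rat and scaled to the total UMIs of those cells, and tests are edgeR quasi-likelihood tests on the summed UMIs, called at an adjusted p of 0.1. In ACI vehicle rats KRT7, a type II keratin of ductal and glandular epithelia, was 7.66 to 22.1 CPM in the basal sort and 46.6 to 78.9 in the luminal sort. KRT18 was 44.6 to 77.3 in the basal sort and 1686 to 2346 in the luminal sort. The luminal minus basal differences were 1.97 for KRT7, 1.66 for KRT8, 5.10 for KRT18 and 1.18 for KRT19. In SD vehicle rats they were 3.00, 2.24, 6.33 and 2.36 in the same order. All 4 of 4 genes were called in both strains, against 65.2% of all genes in ACI and 41.6% in SD, so in ACI rats most genes differed. All 4 calls held in both strains when total UMIs set the scale in place of TMM factors (edgeR's trimmed mean scaling, which centres on the typical gene).

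Of the fixed list of 23 other keratins, more were lower than higher in luminal cells. In the ACI single-cell sorts 9 of 15 tested were lower and 2 were higher, where 65.2% of all genes were called, led by KRT14 at -9.55 and KRT5 at -9.29, both keratins of the basal layer. The median over those 15 was -4.53, against -0.01 over all genes. In ACI bulk at day 0, 7 of 19 were lower and 1 was higher, against 20.5% of all genes called, with KRT20 at 5.67 and a median of -1.55 against -0.21 over all genes.

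KRT8 and KRT18 did not differ between lineages in step, and the ratio of KRT8 to KRT18 within a sample was used to compare them between samples. The ratio was computed after the values had been seen. It is not a comparison of the 2 genes' levels, since reads were not divided by transcript length. In ACI vehicle rats the bulk ratio was 8.29 to 26 (median 13) in 9 basal samples and 1.28 to 3.29 (median 2.67) in 9 luminal samples of the same rats. It was higher in the basal sample of 9 of 9 rats. This follows from the unequal differences of KRT8 and KRT18 given above, so no test is given for it. TGFBRi-treated ACI rats gave 4.62 to 14.0 in basal and 1.41 to 2.94 in luminal samples, again in 9 of 9 rats.

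The separation held in the other experiments. SD vehicle rats had ratios of 9.19 to 14.4 in basal and 1.65 to 2.28 in luminal samples, in 4 of 4 rats. NMU-exposed rats had 6.61 to 10.1 and 2.05 to 3.18 (9 of 9 rats). Adult ACI rats had 3.15 to 13.1 and 1.5 to 2.68 (16 of 16 rats). In none of these experiments did the basal and luminal ranges overlap.

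**Figure D2:**
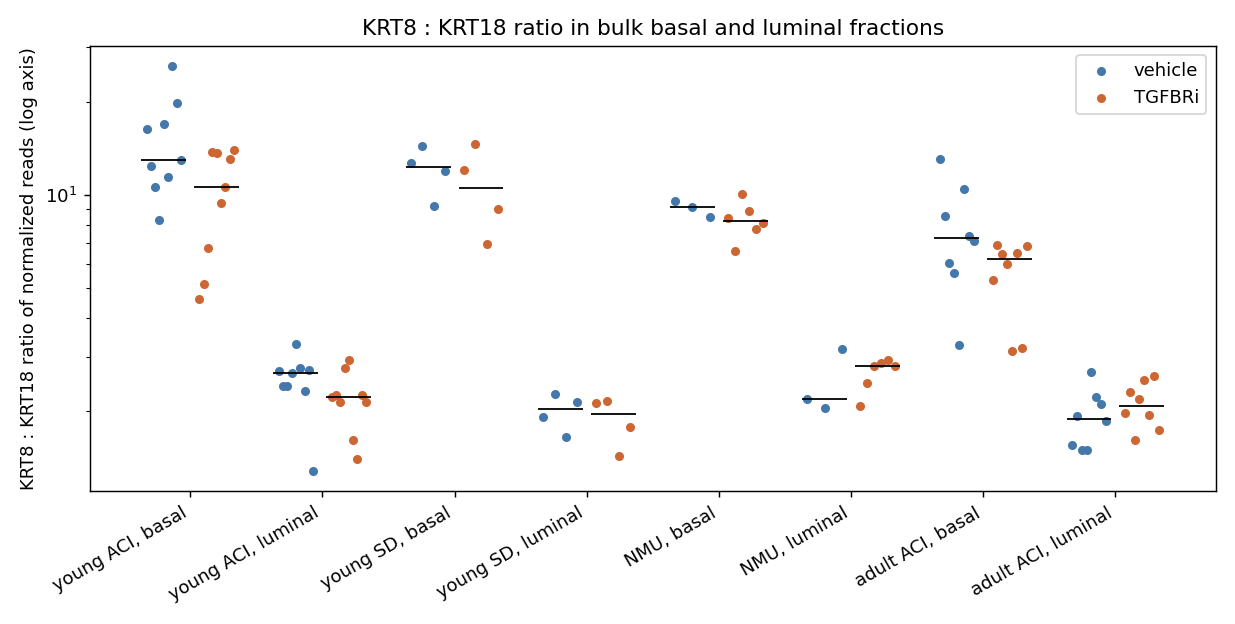
Ratio of KRT8 to KRT18 normalized reads (log axis) in bulk basal and luminal samples; each point is a sample, blue for vehicle and orange for TGFBRi, and the black line is the group median. Vehicle basal samples of young ACI rats have a median of 13 and their luminal samples a median of 2.67.

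The ratio was also higher in basal than in luminal cells of the single-cell tables. Cells were clustered without keratin genes and clusters were called basal-like, luminal progenitor-like or mature luminal-like from fixed markers. Clusters that no marker list named entered no class. These were 2 clusters with 2892 cells in the SD sorts and 5 with 5902 cells in whole glands. SD TGFBRi rat 12 had 3853 cells in the luminal sort, but 472 progenitor-like and 1243 mature luminal-like cells. The ratio was 10.8 to 16.8 in basal-like cells of 6 ACI rats, 1.27 to 1.51 in luminal progenitor-like cells and 0.723 to 0.962 in mature luminal-like cells. In 9 SD rats it was 16.4 to 49.9, 1.46 to 2.24 and 0.930 to 1.29 in the same order. Whole SD glands, which had no keratin filter, gave 9.18 to 20.1, 1.20 to 1.82 and 0.867 to 1.03. The ranges of the classes did not overlap in any of the 3 sets, and no test was made between classes. In the ACI basal-like class, 60.1% to 70.7% of a rat's cells held a KRT8 UMI and no KRT18 UMI, against 0.576% to 2.43% of luminal progenitor-like cells. Median depths were 4250 to 9847 UMIs in the former and 7182 to 18344 in the latter. Leukocyte-like cells of whole glands, which should lack these genes, had a ratio of 0.901 to 1.36 and a KRT8 UMI in 2.94% to 8.79% of cells, against 80.7% to 93.6% of basal-like cells. With every cell thinned to 2000 UMIs these shares were 2.10% to 6.62% and 69.6% to 87.6%. Median depths were 2056 to 3451 UMIs in leukocyte-like and 4675 to 9255 in basal-like cells.

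KRT7 and KRT19 differed between the luminal classes in whole glands. In vehicle rats KRT7 was 114, 215 and 264 CPM in luminal progenitor-like cells and 720, 1054 and 1131 in mature luminal-like cells. KRT19 was 595, 760 and 792 in the progenitor-like cells and 1940, 2824 and 2275 in the mature cells. The 2 classes did not overlap for either gene, nor for 53.9% of all genes, and no test was made between clusters of the same cells. In ACI vehicle sorts KRT7 was 32.5 to 53.9 in progenitor-like and 78.5 to 108.2 in mature luminal-like cells, while KRT19 overlapped, at 134 to 171 and 107.8 to 163. Of all genes 56.5% did not overlap there. In SD vehicle sorts a KRT19 UMI was seen in a mean of 17.4% of thinned progenitor-like and 17.8% of thinned mature luminal-like cells. In whole glands of vehicle rats these means were 64.3% and 91.9%. For KRT7 they were 5.55% and 19.6% in the SD sorts and 20.2% and 67.6% in whole glands.

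No luminal keratin passed an adjusted p of 0.05 between TGFBRi and vehicle in bulk. The question was whether receptor inhibition altered lineage keratins at the end of dosing or afterwards. Over 32 comparisons and 96 gene tests limma called 0, with 8 at an unadjusted p under 0.05. On the recovered reads edgeR called 0 and DESeq2 called 2, which were KRT8 in adult virgin basal samples and KRT19 in CD45+ samples of E2-exposed tumor-bearing rats. Shares of all bulk genes called are given for the reported limma fits only, so bulk counts by edgeR and DESeq2 have no background beside them.

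In ACI luminal samples at day 0 KRT8 was 175800, 198748 and 163730 with TGFBRi and 160375, 162292 and 141189 with vehicle. KRT18 was 78918, 88060 and 76430 with TGFBRi and 59540, 67332 and 58549 with vehicle. The arms did not overlap for either gene, but the differences of 0.21 ± 0.29 (SE, limma adjusted p = 0.763) and 0.39 ± 0.39 (limma adjusted p = 0.655) did not pass the test. None of 3 genes was called, against 1.01% of all genes, and 32.1% of genes did not overlap between the arms.

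At day 14 the ACI luminal arms again did not overlap for KRT8 and KRT18, with differences of 0.51 and 0.81 (limma adjusted p = 0.682 and 0.607), where 0% of all genes were called and 13.8% did not overlap. At day 7 they overlapped, again with 0% of all genes called. KRT18 was 124040, 51498 and 53965 with TGFBRi and 27784, 45544 and 85291 with vehicle, the last being the rat with conflicting labels. The difference was 0.56 with that rat and 0.98 without it (limma adjusted p = 0.807 and 0.597). In SD luminal samples the differences were -0.30 for KRT8, -0.20 for KRT18 and -0.11 for KRT19, with overlap and with 0% of all genes called. The labels call 2 of the 4 TGFBRi rats of this experiment weak and 2 strong responders, which were kept as 1 arm because the words describe an outcome.

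In ACI basal samples KRT19 had the widest difference of the 3 genes, -1.77 ± 0.62 at day 7 (SE, limma adjusted p = 0.703). Its values were 5131, 1968 and 1066 with TGFBRi and 7869, 5069 and 10649 with vehicle, and the highest TGFBRi sample lay just above the lowest vehicle one. Without the vehicle rat with conflicting labels, whose value was 10649, the difference was -1.52 (limma adjusted p = 1.00). No member was called in basal samples of ACI rats at days 0, 7 and 14 or of SD rats, where 3.34%, 0.00639%, 0% and 0% of all genes were. The difference of the effect between luminal and basal samples at day 7 was 1.76 for KRT19 and 0.88 for KRT8 (limma adjusted p = 1.00 for both). It was 1.51 and 0.78 without the basal sample of the rat with conflicting labels and 2.21 and 0.98 without its luminal sample.

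In adult virgin basal samples KRT8 was 20300 to 37115 with TGFBRi and 37830 to 102508 with vehicle. The arms did not overlap, and the difference was -0.83 ± 0.31 (SE, n = 4 per arm, limma adjusted p = 0.106), with 8.73% of all genes called and 11.4% not overlapping. It was -0.47 (limma adjusted p = 0.260) without vehicle rat 1. That rat's basal sample held markers shared by luminal cells at 282187 and leukocyte markers at 23248, the highest of its group, and their part was not tested. No member was called in adult virgin luminal, parous luminal or parous basal samples, where 0%, 0.0281% and 0.00744% of all genes were.

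EPCAM+ cells of NMU tumors had KRT18 at 14514, 6605 and 5034 with TGFBRi and 13771, 18067 and 35567 with vehicle. These values overlapped, and the difference was -1.40 ± 0.60 (SE, limma adjusted p = 1.00). KRT19 did not overlap between the arms, at a difference of -0.68 (limma adjusted p = 1.00), with 0% of all genes called and 6.46% not overlapping. Over both arms these EPCAM+ samples held fibroblast markers at a summed level of 118829 to 1.48e+06 (median 979010). Markers shared by luminal cells were at 18327 to 95918 (median 43112). The part of either list in the result was not tested. In glands of NMU-exposed rats no member was called in luminal samples of tumor-free or tumor-bearing TGFBRi rats, where 1.28% and 1.13% of all genes were, or in their basal samples, where 0% and 10% were.

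E2 exposure lowered no member past the threshold in luminal samples by limma. In vehicle rats, where E2 and tumor bearing cannot be told apart, the differences with E2 were -0.56 for KRT8, -0.61 for KRT18 and -0.42 for KRT19 (limma adjusted p = 0.215, 0.230 and 0.311), with 1.48% of all genes called. In TGFBRi rats KRT18 was 67487 to 79828 in tumor-free rats with E2 and 78459, 202372 and 137117 in rats without it. That difference was -0.82 (limma adjusted p = 0.0772), and it was called without the first of the latter rats (-1.18, limma adjusted p = 0.0101), as was KRT8 (-0.99, limma adjusted p = 0.0205). Of all genes 4.58% were called. Of the 6 gene tests on E2, 5 had an unadjusted p under 0.05, edgeR called 0 and DESeq2 called 2. TGFBRi against vehicle in luminal samples of this experiment gave no member, where 0.0147% of all genes were called in rats given no E2, 0.0147% in E2 rats free of tumors and 0.00736% in E2 rats with tumors. The last of these comparisons had only 2 TGFBRi rats.

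Days after the last dose gave 0 calls in 12 gene tests by limma, edgeR and DESeq2, with 1 unadjusted p under 0.05. In luminal samples 0.685% of all genes were called at day 7 and 0.389% at day 14, and in basal samples 0.192% and 0.0384%. Parity gave 0 in 6 by the same tools, with 2 under 0.05, both in basal samples. Parous minus virgin vehicle differences there were -0.80 for KRT8, -1.07 for KRT18 and -0.72 for KRT19, and -0.44, -0.38 and -0.59 without vehicle virgin rat 1 (limma adjusted p = 1.00 for all 6 values). Differences of the treatment effect between lineages, days or parities gave 0 in 30, with 2 under 0.05. Of all genes 0% were called for parity, and for those differences 1.04% between parities in basal samples, 0.152% between lineages at day 0, 0.00659% and 0.00639% between days 14 and 0 in luminal and basal samples, and 0% in the other 6.

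CD45+ samples, whose gate selects leukocytes, held the genes at variable levels within each experiment. The experiments were scaled separately, so their ranges are listed and not compared. KRT8 was 2849 to 20470 in young ACI, 6706 to 28383 in young SD, 5135 to 67404 in adult ACI, 9022 to 50253 in NMU-exposed SD, 68 to 4750 in the estradiol experiment and 52.1 to 2246 in NMU tumors. The ratio of KRT8 to KRT18 in young ACI CD45+ samples was 1.83 to 3.47, within or just above the luminal range and below the basal one. It was 1.72 to 2.37 in young SD, 0.782 to 2.61 in adult ACI, 0.697 to 2.49 in the estradiol experiment and 0.2 to 2.51 in NMU tumors. In NMU-exposed SD rats it was 2.36 to 7.5, which reached into the basal range of those rats. These CD45+ samples held basal markers at a summed level of 5157 to 132531 (median 6623). Fibroblast markers were at 106972 to 393390 (median 178317) and leukocyte markers at 40214 to 220410 (median 132850). The part of these lists in the ratio was not tested. In adult virgin CD45+ samples KRT8 differed by -1.31 without overlap, as did 3.65% of all genes, and by -0.63 without vehicle rat 1 (limma adjusted p = 0.889 and 1.00). KRT18 went from -1.01 to -0.41 and KRT19 from -1.27 to -0.66 without that rat. In E2-exposed tumor-bearing rats CD45+ samples had KRT19 at 57.3 and 24.7 with TGFBRi and 83.5, 264, 226 and 115 with vehicle (-2.01, limma adjusted p = 0.453), with no overlap, as in 9.8% of all genes. Tumor-free TGFBRi rats, set against the same vehicle samples, had KRT19 at 197 to 619, a difference of 1.18 (limma adjusted p = 0.793) with overlap. Of all genes 0.0223% were called in the tumor-bearing E2 rats, 2.85% in young ACI rats at day 0, 0.022% in adult virgin rats, 0.015% in tumor-bearing NMU rats and 0% in the other 8 CD45+ comparisons.

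Basal cells of older, NMU-exposed SD rats had more of all 3 keratins than basal cells of peripubertal SD rats. KRT8 was 53051, 50604 and 61705 in the NMU vehicle samples and 25746, 28510, 21771 and 23945 in the peripubertal ones. KRT18 was 5554, 5530 and 7263 in the NMU samples and 2030, 1985, 2368 and 2005 in the peripubertal ones. KRT19 was 18630, 15896 and 14679 in the NMU samples and 3821, 3826, 3713 and 4121 in the peripubertal ones. The differences were 1.14 ± 0.22, 1.54 ± 0.20 and 2.08 ± 0.20 (SE, limma adjusted p = 0.000794, 2.30e-05 and 1.51e-06), with no overlap. All 3 of 3 genes were called, against 32% of the 13767 genes tested, and 46.8% of genes did not overlap. Luminal samples of the same rats gave 0.23, -0.06 and 0.18, with none called against 10.1%, and the difference between fractions was not tested. Age, NMU and tumor bearing cannot be told apart. In the same comparison 4 of 7 markers shared by luminal cells rose and 1 fell, at a summed level of 23990 to 41319 against 20886 to 23566, 4 of 9 luminal progenitor markers rose and 1 fell, at 11515 to 17935 against 6045 to 8350, 3 of 11 leukocyte markers rose, at 462 to 1509 against 43.1 to 129, and 4 of 5 fibroblast markers fell, at 25481 to 154984 against 370891 to 594091. The list medians were 1.05, 1.27, 1.57 and -2.49, against -0.01 over all genes. Their part in the result was not tested.

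In the ACI single-cell luminal sort, KRT8 and KRT18 were higher after TGFBRi. KRT8 was 3380, 3137 and 3083 CPM in TGFBRi rats and 2245, 2283 and 2043 in vehicle rats. KRT18 was 2810, 2491 and 2569 against 2022, 2346 and 1686. KRT7 was 106.5, 76.9 and 70.6 against 74.5, 78.9 and 46.6. The edgeR differences were 0.82 ± 0.12 (SE, adjusted p = 0.00531) for KRT8, 0.65 ± 0.15 (adjusted p = 0.0172) for KRT18 and 0.61 ± 0.21 (adjusted p = 0.0853) for KRT7. KRT19 was 97.8, 106.6 and 103.5 against 161, 155 and 126, a difference of -0.24 (edgeR adjusted p = 0.182). The arms did not overlap for KRT8, KRT18 and KRT19 and overlapped for KRT7, and 41.9% of all genes did not overlap. Thus 3 of 4 genes were called, against 25% of all genes.

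These differences are on the TMM scale, which is relative to the typical gene. With total UMIs as the scale, the median of all genes in the ACI luminal sort moved from -0.01 to -0.28 and the share of calls that were higher from 53.4% to 11.1%. On that scale KRT8 at 0.55 and KRT18 at 0.38 were still called (edgeR adjusted p = 0.00837 and 0.0755), KRT7 at 0.35 was not (edgeR adjusted p = 0.301), and KRT19 at -0.52 was (edgeR adjusted p = 0.00886). Across the sort and class comparisons of the ACI and SD sorts this shift was -0.22 to -0.41.

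Both luminal classes of ACI rats had such differences. In luminal progenitor-like cells KRT8, KRT18 and KRT7 rose by 0.83, 0.71 and 0.73, and in mature luminal-like cells by 0.83, 0.56 and 0.51, with 3 of 4 genes called against 28% of all genes in the former and 26% in the latter. With total UMIs as the scale KRT7 was not called in either class (0.41 and 0.29) and KRT19 was (-0.65 and -0.40). On the TMM scale KRT19 was called lower without vehicle rat 9 in the luminal sort (-0.34, edgeR adjusted p = 0.0736). The same omission called it in progenitor-like and mature luminal-like cells (-0.42 and -0.34, edgeR adjusted p = 0.0648 and 0.0626). In progenitor-like cells it was also called without TGFBRi rat 15 (-0.41, edgeR adjusted p = 0.0897). KRT7 lost its call in the luminal sort without any of 4 rats and in the progenitor-like class without TGFBRi rat 12 or 15. In the luminal sort 5 of 7 markers shared by luminal cells rose with them, among them CLDN4 at 0.65, a tight junction protein, at a summed level of 6835 to 7706 CPM against 5973 to 6527 and a median difference of 0.43 against -0.01 over all genes. Their part in the result was not tested. In that sort 3 of 9 luminal progenitor markers rose and 1 fell, at 9827 to 12209 against 4127 to 9886. In progenitor-like cells 5 of the 7 rose, at 8844 to 10310 against 6582 to 8351, and 3 of 9 luminal progenitor markers rose and 1 fell, at 18277 to 23768 against 10870 to 14128, with no overlap of either sum. In mature luminal-like cells 1 of the 7 rose, and the sums overlapped, at 4668 to 5302 against 4589 to 5288.

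In the ACI basal sort KRT19 was lower after TGFBRi. It was 29.2, 22.5 and 30.6 CPM in TGFBRi rats and 76.1, 75.8 and 42.7 in vehicle rats, without overlap, as in 46.6% of all genes. The difference was -1.02 ± 0.25 (SE, edgeR adjusted p = 0.0269), and 1 of 4 genes was called against 33%. With total UMIs as the scale it was -1.25 (edgeR adjusted p = 0.00555). In basal-like cells, with 1 of 4 genes called against 34.1%, it was -1.02 (edgeR adjusted p = 0.0233). KRT8 was 769, 779 and 735 against 831, 761 and 493 (0.35, edgeR adjusted p = 0.150), and it was called without vehicle rat 7 (0.50, edgeR adjusted p = 0.0461). KRT7 was called without vehicle rat 9 (-0.51, edgeR adjusted p = 0.0210). Of 10 basal markers 2 rose and 3 fell, at a summed level of 20040 to 20688 with TGFBRi and 24176 to 24988 with vehicle, and 3 of 7 markers shared by luminal cells rose, at 890 to 1079 against 624 to 764. The basal-like class lay in different clusters: clusters 0 and 1 each made up 31.6% to 45.1% of it in TGFBRi rats and at most 2.58% in vehicle rats, and clusters 2 and 4 made up 20.4% to 58.7% in vehicle rats and at most 3.09% in TGFBRi rats. The part of these shifts in the result was not tested.

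Calls in the SD sorts depended more often on single rats and on the scale. In basal-like cells KRT8 was 764 to 1845 CPM in 6 TGFBRi rats (median 1044) and 728 to 831 in 3 vehicle rats, a difference of 1.01 ± 0.29 (SE, edgeR adjusted p = 0.0322). KRT18 was 26.5 to 112 (median 35.4) against 14.9 to 32.6, a difference of 1.34 ± 0.49 (edgeR adjusted p = 0.0675). The arms overlapped for both. The 2 calls remained without rat 14, at 0.74 (edgeR adjusted p = 0.0189) and 0.76 (edgeR adjusted p = 0.0490), but KRT8 was lost without vehicle rat 1 or 3 and KRT18 without any of the 3 vehicle rats. In all, 2 of 4 genes were called, against 30%, and neither was with total UMIs as the scale (0.57 and 0.87, edgeR adjusted p = 0.106 and 0.165). Different clusters held this class in the arms, and one made up 72.8% to 87.1% of it in vehicle rats and 0.0368% to 10.5% in TGFBRi rats. In the basal sort KRT8 at 0.96 (edgeR adjusted p = 0.0665) was the 1 gene of 4 called, against 24.7%. It was called without rat 14 (0.69, edgeR adjusted p = 0.0549), but not with total UMIs as the scale (0.54), nor without TGFBRi rat 11 or any of the 3 vehicle rats. Markers shared by luminal cells in basal-like cells summed to 596 to 1348 with TGFBRi and 590 to 731 with vehicle, and 4 of 7 rose. Mature luminal markers there summed to 119 to 534 (median 317) against 119 to 173 (median 162), and 2 of 8 rose and 1 fell. The part of either list in the result was not tested.

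KRT18 rose in the SD luminal sort, at 1955 to 3051 CPM (median 2276) against 1947, 1455 and 1920. The arms did not overlap, by a margin of 1955 to 1947, and neither did 28.7% of all genes. The difference was 0.84 ± 0.23 (SE, edgeR adjusted p = 0.0338), or 0.67 without rat 14 (edgeR adjusted p = 0.0404), and the call was lost without vehicle rat 1 or 2. It was the 1 gene of 4 called, against 31.8%. With total UMIs as the scale KRT18 was called at 0.48 (edgeR adjusted p = 0.0716), and so was KRT19 at -1.07 (edgeR adjusted p = 0.0901). Mature luminal-like cells gave KRT18 at 0.85 and KRT8 at 0.68 (2 of 4, against 30.8%), the latter not called with total UMIs as the scale (0.35, edgeR adjusted p = 0.187), on which KRT19 was (-1.10, edgeR adjusted p = 0.0876), nor without TGFBRi rat 12 or any of the 3 vehicle rats. Without rat 14 they were 0.74 and 0.52 (edgeR adjusted p = 0.0312 and 0.0869). That class also lay in different clusters, one with 70.4% to 86.3% of it in vehicle rats and 0% to 59.3% (median 1.26%) in TGFBRi rats. Leukocyte markers summed to 4.33 to 6.36 against 2.34 to 2.79 CPM in the luminal sort and to 3.92 to 6.94 against 1.76 to 2.61 in mature luminal-like cells, higher without overlap in both, with 1 of 6 and 2 of 5 tested markers called. Markers shared by luminal cells overlapped, at 5520 to 12713 against 7166 to 8178 and at 5032 to 9367 against 4486 to 5820, and 2 and 4 of 7 rose. Luminal progenitor markers in mature luminal-like cells overlapped at 1542 to 3997 against 597 to 1856, where 1 of 9 rose and 1 fell. The part of these lists in the result was not tested. Progenitor-like cells gave 0 of 4 calls (24.7% of all genes), and that class lay in different clusters, one with 71.8% to 86.3% of it in vehicle rats and up to 11.7% in TGFBRi rats. Their KRT7 difference was 0.01, and -0.77 without rat 14 (edgeR adjusted p = 0.0566). Their KRT18 difference was 0.65, and 0.50 without rat 14 (edgeR adjusted p = 0.165 and 0.220). KRT18 was called there without TGFBRi rat 12 (0.77, edgeR adjusted p = 0.0861), many of whose luminal-sort cells entered no class. KRT19 differed by -0.61 to -0.81 in the SD sorts and classes, and by -0.51 to -0.75 without rat 14, without passing on the TMM scale. Without TGFBRi rat 9 it did pass on that scale in the luminal sort (-1.05, edgeR adjusted p = 0.0285). It also passed without that rat in progenitor-like cells (-1.12, edgeR adjusted p = 0.0539) and mature luminal-like cells (-1.08, edgeR adjusted p = 0.0245).

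**Figure D3:**
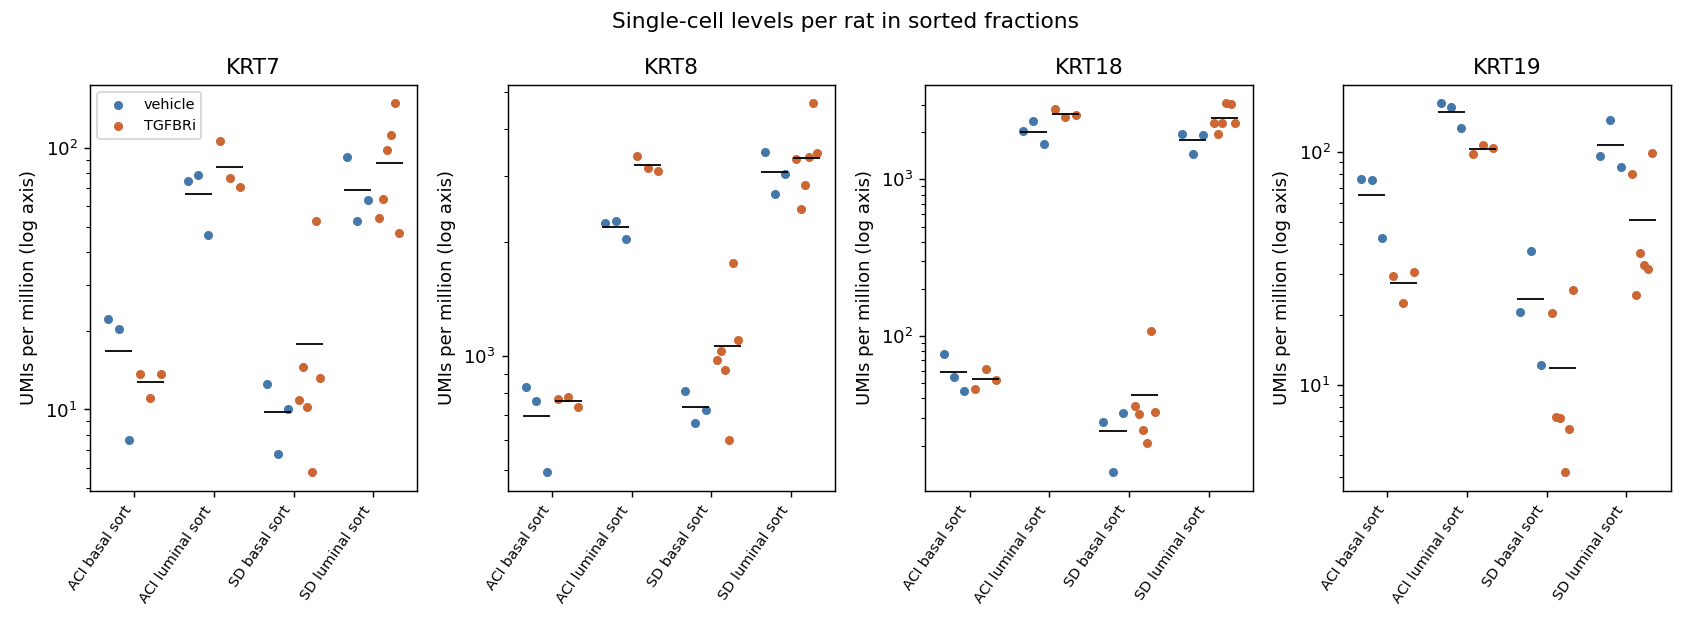
CPM (log axis) of the 4 genes summed over the cells of each rat in the basal and luminal sorts of ACI and SD rats; each point is a rat, blue for vehicle and orange for TGFBRi, and the black line is the group mean. KRT8 in the ACI luminal sort lies at 3083 or more in TGFBRi rats and 2283 or less in vehicle rats, and SD TGFBRi rat 14 is the high point of the SD basal sort for KRT7, KRT8 and KRT18.

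In whole SD glands the epithelial classes had less of several luminal keratins after TGFBRi. KRT7 in luminal progenitor-like cells was 13.6 to 33.7 CPM in 6 TGFBRi rats (median 24.4) and 114, 215 and 264 in vehicle rats. The difference was -3.16 ± 0.30 (SE, edgeR adjusted p = 0.000225), and the arms did not overlap, as in 23.1% of all genes. In mature luminal-like cells KRT7 was 167 to 580 (median 285) against 720, 1054 and 1131, a difference of -1.69 ± 0.34 (edgeR adjusted p = 0.00997). Both were called in the same direction with total UMIs as the scale (-3.03 and -1.64). Within each of the 2 progenitor-like clusters that held most of the class the arms were also apart, at 13.9 to 33.5 against 115 to 263 and at 9.59 to 48.6 against 61.8 to 294. Leukocyte-like cells of the same libraries held KRT7 at 1.18 to 2.11 with TGFBRi and 3.37 to 5.66 with vehicle, and fibroblast-like cells at 0.648 to 4.58 and 6.90 to 21.6. Over all cells of a gland KRT7 was 27.5 to 77.3 with TGFBRi and 129 to 146 with vehicle. PTPRC-positive cells made up 33.4% to 44.5% of TGFBRi and 15.1% to 29.1% of vehicle glands, and the part of either in the result was not tested. In sorted SD cells KRT7 differed by 0.01 in progenitor-like and 0.68 in mature luminal-like cells, neither called (edgeR adjusted p = 0.989 and 0.161). These were -0.77 and 0.50 without rat 14 of the sorts (edgeR adjusted p = 0.0566 and 0.241). In the mature luminal-like cells KRT7 was called higher without TGFBRi rat 10 (0.79, edgeR adjusted p = 0.0769) or 9 (0.80, edgeR adjusted p = 0.0712). In sorted ACI cells the KRT7 differences of the progenitor-like and mature luminal-like classes were 0.73 and 0.51, both called (edgeR adjusted p = 0.0453 and 0.0130).

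KRT8 was lower in all 3 epithelial classes of whole glands on the TMM scale, and with total UMIs as the scale it passed in basal-like and progenitor-like cells. In basal-like cells it was 870 to 1128 (median 915) in TGFBRi rats and 1350, 1713 and 1573 in vehicle rats (-0.65 ± 0.11, edgeR adjusted p = 0.000944). The arms did not overlap, nor did they for 32.6% of all genes. In progenitor-like cells the difference was -0.58 (edgeR adjusted p = 0.0222), lost without vehicle rat 1 (-0.49, edgeR adjusted p = 0.138) or 4 (-0.45, edgeR adjusted p = 0.142). In mature luminal-like cells it was -0.42 (edgeR adjusted p = 0.0976), a call lost with total UMIs as the scale (-0.37, edgeR adjusted p = 0.137) and without any one of 7 of the 9 rats.

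KRT19 fell in mature luminal-like cells, at 961 to 1596 (median 1012) against 1940, 2824 and 2275, a difference of -1.11 ± 0.17 (SE, edgeR adjusted p = 0.000886) without overlap, as in 21.5% of all genes. In progenitor-like cells it differed by -0.22 (edgeR adjusted p = 0.322). KRT18 fell in basal-like cells (-0.60, edgeR adjusted p = 0.0392), a call lost without vehicle rat 2 (-0.50, edgeR adjusted p = 0.161), and with all rats it passed in neither luminal class. Without TGFBRi rat 4 KRT18 was called lower in mature luminal-like cells (-0.38, edgeR adjusted p = 0.0420). In all, 3 of 4 genes were called in basal-like cells against 44%, 2 of 4 in progenitor-like cells against 26.7% and 3 of 4 in mature luminal-like cells against 27.6%. KRT7 in basal-like cells (-0.64, edgeR adjusted p = 0.0805) was not called without any one of 5 of the 9 rats.

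**Figure D4:**
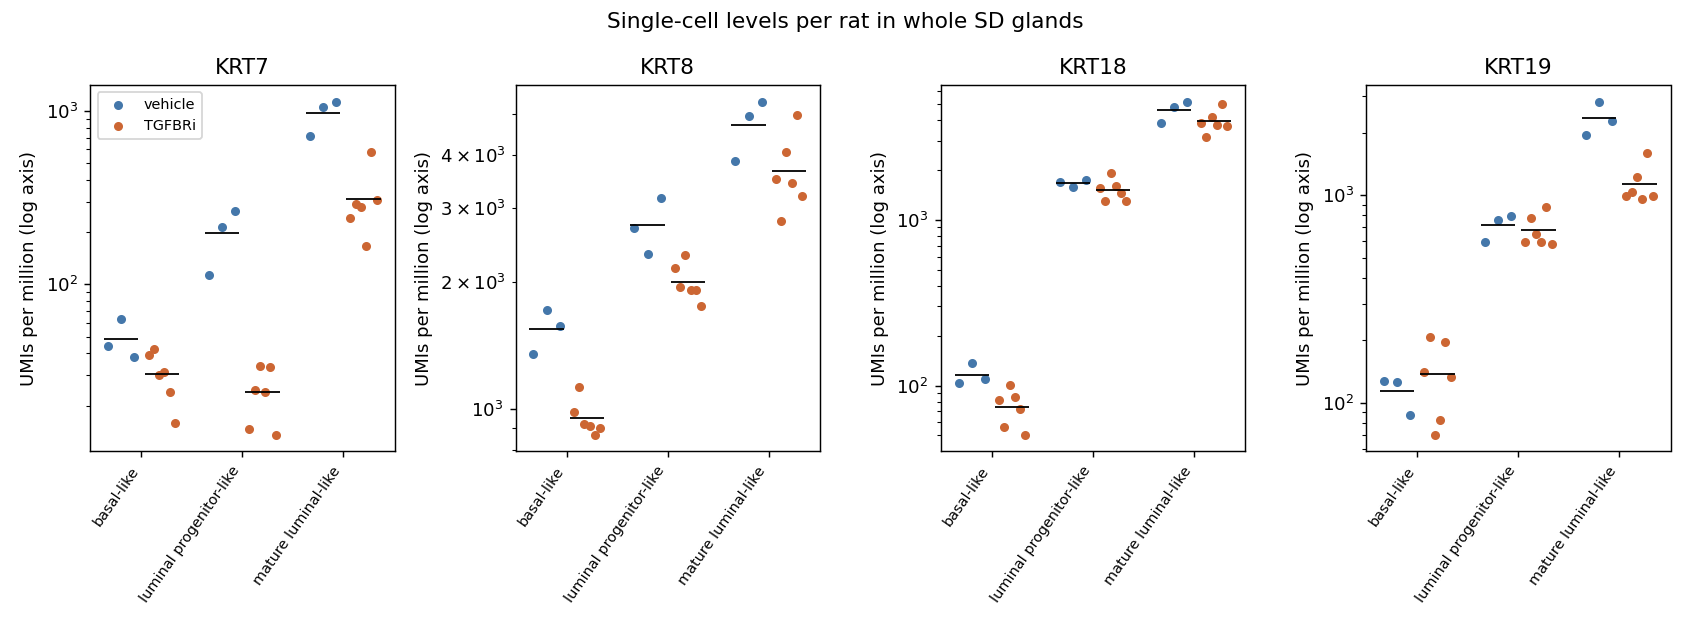
CPM (log axis) of the 4 genes in basal-like, luminal progenitor-like and mature luminal-like cells of whole SD glands; each point is a rat, blue for vehicle and orange for TGFBRi, and the black line is the group mean. KRT7 in progenitor-like cells lies at 33.7 or less in 6 TGFBRi rats and at 114 or more in 3 vehicle rats.

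Other keratins and the partners of keratin filaments were counted in the same classes. In progenitor-like cells 4 of 12 other keratins fell and none rose, against 26.7% of all genes called, with KRT16 at -4.37, KRT17 at -3.49, KRT80 at -2.10 and KRT14 at -1.06. Of 17 filament partners, which tie filaments to desmosomes, 8 fell and 3 rose, among them DSP at -2.23 and PKP1 at -2.94. Of the partners 7 of 16 fell and none rose in mature luminal-like cells, and 7 of 18 fell and 4 rose in basal-like cells. The medians in progenitor-like cells were -0.83 over the keratins and -0.47 over the partners, against 0.04 over all genes. In mature luminal-like cells 4 of 9 other keratins fell, against 27.6% of all genes called, with KRT23 at -3.65, and the median over the 9 was -1.80 against 0.02 over all genes. In basal-like cells 6 of 16 other keratins rose and 1 fell, a share near the 44% of all genes called there, with a median of 0.57 against 0.09 over all genes.

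Markers and clusters moved with these results. In all, 4 of 7 markers shared by luminal cells fell in progenitor-like cells, at a summed level of 6355 to 10849 against 12067 to 16967, and 4 of 7 fell in basal-like cells, at 1422 to 1786 against 2079 to 2536. Mature luminal markers in basal-like cells summed to 107.3 to 279 (median 174) against 231 to 685 (median 524), where 1 of 9 rose and 1 fell. In mature luminal-like cells 5 of 7 fell, at 6429 to 8784 against 10611 to 11817. There summed luminal progenitor markers were 232 to 357 against 660 to 1659 and basal markers 91.6 to 193 against 292 to 378, both lower without overlap, although of the tested genes of each list 2 of 8 and 1 of 8 fell and 1 of each rose. The class's own mature luminal markers summed to 2614 to 4457 against 2021 to 2554, without overlap, and 4 of 9 rose and 2 fell. The medians over the markers shared by luminal cells were -0.67, -0.42 and -0.50 in progenitor-like, basal-like and mature luminal-like cells. Summed basal markers in basal-like cells were 17314 to 25999 with TGFBRi and 9313 to 14346 with vehicle, and 8 of 10 rose. The basal-like class lay in different clusters, one with 70.1% to 91.1% of it in TGFBRi rats and 3.32% to 34.9% in vehicle rats. The part of these shifts in the result was not tested.

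The share of cells with a UMI of a member gave no call after adjustment over 52 tests. The lowest adjusted p was 0.124, with cells thinned to 2000 UMIs (exact permutation tests, smallest possible p = 0.1 with 3 rats against 3 and 0.0238 with 6 against 3). In progenitor-like cells of whole glands, a KRT7 UMI was seen in 2.15% to 6.19% of thinned cells with TGFBRi and 13.9% to 24.2% with vehicle, against 0.127% to 1.28% of leukocyte-like cells. Thinning kept 4616 of 7912 TGFBRi and 2826 of 3987 vehicle progenitor-like cells. With all UMIs the shares were 3.90% to 11.3% and 24.5% to 29.9%, at median depths of 2099 to 6428 and 2526 to 5537 UMIs, and the leukocyte-like share was 0.311% to 1.35%.

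Over the 12 group means of ACI basal and luminal bulk samples, the genes with the profile nearest to each keratin were taken from 9897 genes by the root mean square difference of centred log2 values. KRT8 was nearest to SPINT1, ARRDC1 and XBP1 (0.27 to 0.30). KRT18 was nearest to RHOV, ELF3 and PKP2 (0.34 to 0.35), and KRT19 to FAM213B, ECI1 and SYNGR1 (0.43 to 0.45). The points share libraries and lineages, and no p was computed.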

How the data were processed

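RNA of 202 sorted bulk samples and 39 single-cell libraries was measured in rats. Per the labels and the study's methods, bulk reads were aligned to rn6 with STAR 2.5.1b, counted with HTSeq and divided by DESeq2 (1.30.1) size factors, so the deposited bulk values are a normalized signal per gene with no length correction. Size factors computed on a table matched its scaling in all tables but that of EPCAM+ tumor cells, which departed by up to 0.0782 on the log2 scale. Of values above 0, 100% gave whole reads (tolerance 0.001), and the recovered reads entered edgeR and DESeq2 as alternatives. The authors deposited UMI counts per cell from Cell Ranger 4.0.0 or 7.0.0 after filters in Seurat (4.0.0 or 4.1.1). These removed sorted cells with fewer than 2 keratin reads or any PTPRC read. By the study's methods, sorted cells in clusters made up almost wholly of the other sort were also removed. The single-cell basal and luminal sorts compared here had thus been cleared of such cells. Antisense and paralog reads were not separated here. Levels were tested only within tables scaled together. The ratio of KRT8 to KRT18, in which a sample's scale cancels, was also set side by side across tables.

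Groups came from the labels, with a rat of conflicting treatment labels kept by its title and treatment label, and a CD45+ TGFBRi sample titled as another day kept at day 7 by its other labels. Samples were taken as separate rats, and 4 parts of 1 rat of the estradiol experiment were averaged. No pair of the 267 replicate pairs agreed within sampling noise. Bulk tests used limma 3.58.1 (trend, robust) on log2(value + 1) for genes with a summed value of 10 or more, fitting every group of a table jointly, at a Benjamini-Hochberg adjusted p of 0.05. UMI counts were summed per rat and sort or class and tested with edgeR 4.0.16 (quasi-likelihood, TMM, at least 10 counts, adjusted p of 0.1) in R 4.3.3. Clusters (scanpy 1.11.5, 2000 variable genes, 30 components, 20 neighbours, Leiden resolution 0.8) were made without keratins, and no doublets were removed in the reported values. Lists and tests, and the members themselves, were chosen with earlier results of these data known. The genes named were the 4 members, the 3 genes of nearest profile to each (mean of at least 50) and up to 4 of the most changed genes of each fixed list, taken from those called where any were. The ratio of KRT8 to KRT18 was added later.

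Basal and luminal samples of a rat form pairs by the labels, and correlations of their deviations were -0.0248 to 0.790 in young ACI rats. The rat as a replicate block changed no call between lineages. The limma and edgeR steps were tested on simulated data. Alternatives covered the tool, scaling (DESeq2 1.42.0 among them), a pseudocount of 8, filters, samples in the fit, blocks, cluster resolution of 0.4, doublets by Scrublet score (6% removed) and each replicate left out. Intervals are not given for levels, and depth was 4194912 to 52314784 reads in bulk.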

Additional observations from a re-analysis of the deposited data

Results flagged for a closer look

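In 98 groups of 4 to 10 samples of a member, 14 held a highest or lowest sample apart from the rest by Dixon's criterion. Chance alone meets this criterion in about 1 group in 20. The groups share rats and cells across genes, sorts and classes, so the 14 cannot be set against that rate. Vehicle virgin rat 1 of the adult ACI experiment had CD45+ normalized read counts of 67404 for KRT8, 29682 for KRT18 and 22862 for KRT19, and basal counts of 102508 for KRT8 and 31330 for KRT18. Vehicle virgin rat 3 had 96955 for KRT19 in its luminal sample. Young SD vehicle rat 3 had 2368 for KRT18 in its basal sample.

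SD TGFBRi rat 14 stood above the other 5 rats of its arm in 6 groups. Its basal sort held KRT7 at 52.5 and KRT18 at 107.4 CPM. Its basal-like cells held KRT7 at 54.8, KRT8 at 1845 and KRT18 at 112, and its luminal progenitor-like cells held KRT7 at 74.1. In whole glands TGFBRi rat 4 had KRT7 at 580 CPM in mature luminal-like cells.

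KRT8 in luminal progenitor-like cells differed by 0.83 between TGFBRi and vehicle in sorted ACI cells and by -0.58 in whole SD glands, with every treated rat above the vehicle mean in the former and below it in the latter. In sorted SD cells it differed by 0.40, and by 0.16 without rat 14 (edgeR adjusted p = 0.453 and 0.721). In basal-like cells KRT8 differed by 1.01 in sorted SD cells (0.74 without rat 14) and by -0.65 in whole SD glands. KRT7 in mature luminal-like cells differed by 0.68 in sorted SD cells (0.50 without rat 14) and by -1.69 in whole SD glands. In progenitor-like cells its difference was 0.01 in sorted SD cells (-0.77 without rat 14) and -3.16 in whole SD glands. Differences between these effects were not tested. By the study's methods, the whole glands had another library kit, which reads the opposite end of the transcript, and another sequencer. Between sorts and whole glands of SD rats the sort, the keratin filter, the library kit, the sequencer and the library series cannot be told apart.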

How the results depend on the processing

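Over the alternatives counted, 1957 of 2012 recomputed differences of single genes and 660 of 686 counts of called members gave the reported call or a count within 1.5 times the reported one. Replicates left out entered these totals only by their lowest and highest value per comparison, so other changes of a call are not in them. Signs changed in 77 of the 2012, and a changed sign counted as the reported call where neither value was called. The totals include many bulk tests with no call to lose. Shares of all genes called are not given for these alternatives, so their counts describe the members only. In bulk, 1 member was called between lineages of ACI rats at day 7 when only the groups compared were fitted, against 3. DESeq2 on the recovered reads called 2 members for E2 in TGFBRi rats, 1 in adult virgin basal samples and 1 in CD45+ samples of tumor-bearing E2 rats, against 0 in each. Leaving out a replicate gave 0 to 2 calls for E2 in TGFBRi rats and 0 to 1 in ACI CD45+ samples at day 0.

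In the single-cell sorts DESeq2 called 2 members in the ACI basal sort and in ACI basal-like cells, against 1 in each, and 3 in the SD basal sort, against 1. Leaving out each rat in turn gave 1 to 2 calls in the ACI basal sort and basal-like cells, and 0 to 1 in the SD basal sort. It gave 0 to 2 in the SD luminal sort, 0 to 1 in SD progenitor-like cells and 1 to 4 in SD mature luminal-like cells. In SD basal-like cells it gave as few as 0. There KRT7 was called along with KRT8 and KRT18 without TGFBRi rat 9, 10 or 13 (1.49 to 1.52, edgeR adjusted p = 0.0844 to 0.0933). KRT7 in SD progenitor-like cells turned from 0.01 to -0.77 (edgeR adjusted p = 0.0566) without rat 14, and its highest value with 1 rat left out was 0.32.

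In whole glands, leaving out a rat gave as few as 1 call in basal-like cells (3 with all rats) and 1 in progenitor-like cells (2 with all rats). The numbers 1, 2 and 4 are used in both arms there, but deviations correlated at -0.454 to 0.464 and only a number is shared. The replicate block on these rats left 1 call in progenitor-like cells, as did the same 6 rats without the block, which also left 1 in mature luminal-like cells (3 with all rats). In adult bulk samples the animal codes reused in both arms correlated at -0.108 to 0.116, and a replicate block on them changed no call.

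Those 6 rats without the block and the scale by total UMIs were chosen after seeing the data. With total UMIs as the scale, 0 members were called in the SD basal sort (1 reported) and in SD basal-like cells (2 reported), and 2 in the SD luminal sort (1 reported). In SD mature luminal-like cells the count stayed at 2, with KRT8 lost and KRT19 gained. In 3 uncalled gene tests the sign changed on that scale. The cause of these changes was not tested. With 3 rats per arm most bulk comparisons had standard errors of 0.28 to 0.62 on the log2 scale, and KRT7 in the basal sorts rested on 5.76 to 52.5 CPM.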
